A study of Mus musculus with 6 samples.

Results

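The genes described here are 10 secreted signals from tumour cells to neutrophils, monocytes and T cells: the chemokines Cxcl1, Cxcl2, Cxcl5, Ccl2, Ccl5 and Ccl7, the colony-stimulating factors Csf1, Csf2 and Csf3, and Lif, a cytokine of the interleukin 6 family that shares the receptor chain gp130. They were taken by symbol, and all 10 were found among the 16426 genes with values. The mRNA came from 4T1-LM3 cells, a murine mammary carcinoma line, in 6 libraries: 3 from cells given conditioned medium (CM) of matrix fibroblasts (MFs) called Tdo2high, and 3 from cells given a control CM. Tdo2 encodes the enzyme that starts the breakdown of tryptophan to kynurenine. Neither the cells behind the control CM nor the length of the culture is given in the labels, so what else differs between the media is not known. Whether each group's 3 libraries come from separate cultures is not stated, and the spread that p-values are set against may therefore be technical.

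Chemokines are small secreted proteins that draw leukocytes along a gradient. Those of the CXC class with an ELR motif, here Cxcl1, Cxcl2 and Cxcl5, act on neutrophils through the receptor CXCR2. Ccl2 and Ccl7 draw monocytes through CCR2, and Ccl5 draws T cells and other leukocytes. Csf1 keeps macrophages alive through its receptor CSF1R, Csf2 (GM-CSF) acts on granulocytes and macrophages, and Csf3 (G-CSF) drives the output of neutrophils from the bone marrow. Mouse mammary carcinomas of the 4T1 family are known for the high numbers of neutrophils in the animals that carry them.

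Values are FPKM, fragments scaled by transcript length and library, so levels can be compared between genes. They measure mRNA of the cultured cells and not the secreted protein, nor the same proteins carried over in the added medium. FPKM summed to between 438603 and 447415 in a library, and the 10804 genes that reached 1 FPKM in 3 or more of the 6 libraries were tested. Libraries of a group correlated across genes at 0.997 to 0.998 (Pearson, log2 scale) and those of different groups at 0.996. Differences are those of log2(FPKM + 1), Tdo2high MFs CM minus control CM, a scale on which the changes of weak genes look smaller than they are. A gene was called when its Benjamini-Hochberg adjusted p by limma was under 0.05 over all tested genes.

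With Tdo2high MFs CM, Cxcl5 and Csf3 rose and Ccl5 fell. Csf1, the most abundant of the 10, differed between the media by less than the spread between libraries. Of the 10 genes, 7 passed the filter on low values, and of these 2 were called higher, 1 lower and 4 were not called. Over all tested genes 3.35% were called higher and 4.06% lower, or 7.41% in either direction. The median difference of the 7 was 0.05, against -0.01 over all tested genes. Ccl7 lay around 1 FPKM, and Cxcl2 and Csf2 lay below 1 FPKM in all 6 libraries. These 3 were not tested.

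**Figure D1:**
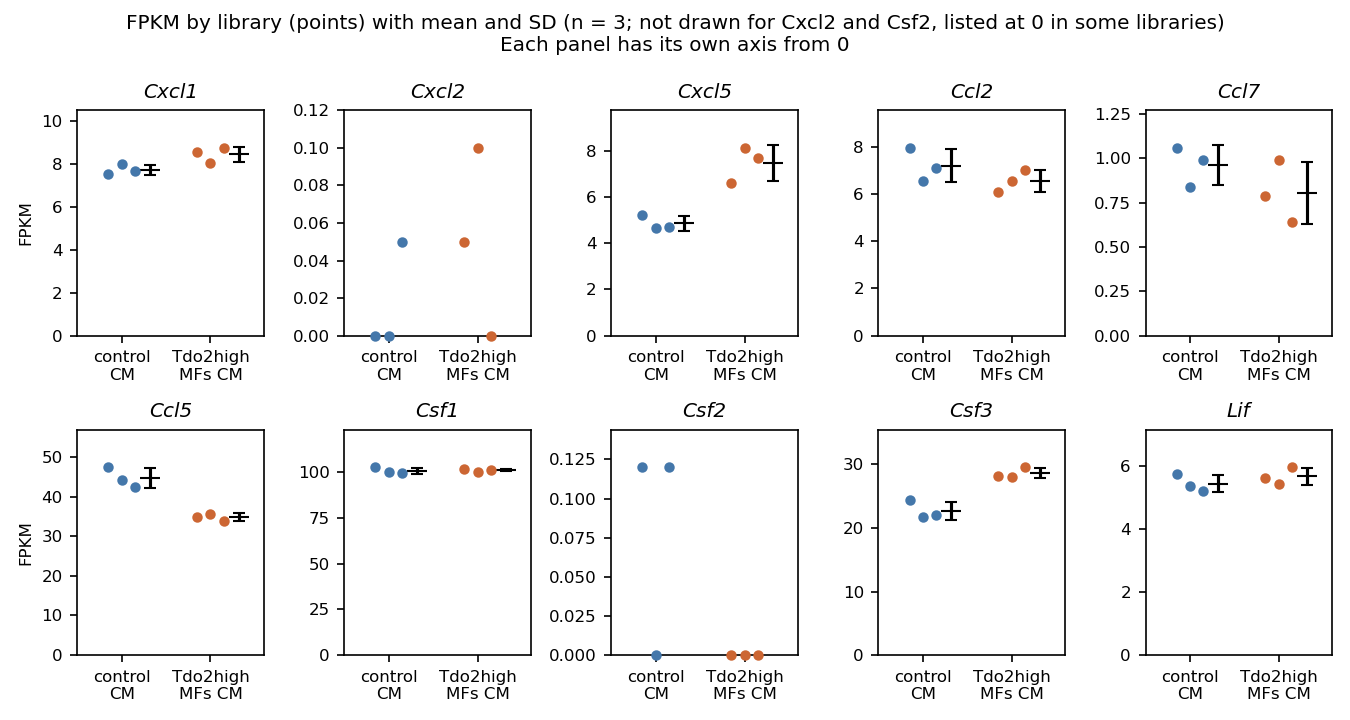
FPKM of each of the 10 genes in the 3 libraries with control CM (blue) and the 3 with Tdo2high MFs CM (orange), with mean and SD (n = 3; not drawn for Cxcl2 and Csf2) in black, on an axis from 0 for each gene. The groups stand apart for Cxcl5, Ccl5 and Csf3 and, narrowly, for Cxcl1, as they do for 29.2% of all tested genes. Csf1 stays between 99.51 and 102.89 FPKM, and Cxcl2 and Csf2 do not exceed 0.12 FPKM.

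Promoter sequence is shown for 3 of these genes that hold a like motif and have very different levels. The RefSeq table of promoters (GRCm38.p6, 250 bases before to 50 after a start) held 5 of the 10: Csf1, Cxcl1, Cxcl2, Csf2 and Lif. Each stretch below is 100 bases, 5′ to 3′ on the gene's strand, and capitals mark matches on either strand to a wide NF-kB pattern, GGG and CC with any 5 bases between them. NF-kB is the transcription factor through which many inflammatory stimuli switch on chemokine genes.
Cxcl1, chr5:90891115-90891214, plus strand: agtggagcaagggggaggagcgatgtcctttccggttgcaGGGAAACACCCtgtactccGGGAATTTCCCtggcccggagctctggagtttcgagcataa
Cxcl2, chr5:90903769-90903868, plus strand: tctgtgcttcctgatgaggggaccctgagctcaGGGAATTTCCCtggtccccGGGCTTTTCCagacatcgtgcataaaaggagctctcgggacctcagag
Csf1, chr3:107760560-107760659, minus strand: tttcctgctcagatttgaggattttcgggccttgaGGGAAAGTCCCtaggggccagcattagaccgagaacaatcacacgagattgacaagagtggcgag

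Cxcl1 and Cxcl2 share the match GGGAATTTCC, which lies at -71 to -62 from the start of Cxcl1 and at -97 to -88 from that of Cxcl2. Cxcl1 had 7.52 to 8.73 FPKM over the 6 libraries and Cxcl2 0 to 0.10, so the shared letters went with very different levels of mRNA. The Csf1 window held GGGACTTTCC on the opposite strand, at -154 to -145. The wide pattern matched 50.8% of the 32851 windows in the table and all 5 windows of these genes. A narrower one (GGGA, any 2 bases, TTCC), chosen after the Cxcl1 and Cxcl2 windows had been seen, matched 1.47% of all windows and 3 of these 5. Wide and narrow matches overlap each other, and a near-palindrome matches on both strands.

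Patterns for other factors were searched on both strands as well. The AP-1 pattern TGANTCA matched the Lif window (7.81% of all windows) and the C/EBP pattern TTGCNNAA that of Csf2 (10.8%). GCGTG, the core read by the aryl hydrocarbon receptor, a sensor of kynurenine, matched Cxcl2 and Lif (32.4%). TGACNNNGC, the core of the antioxidant response element, matched Csf2 and Lif (12.4%). A match describes letters only and is not a bound site.

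**Figure D2:**
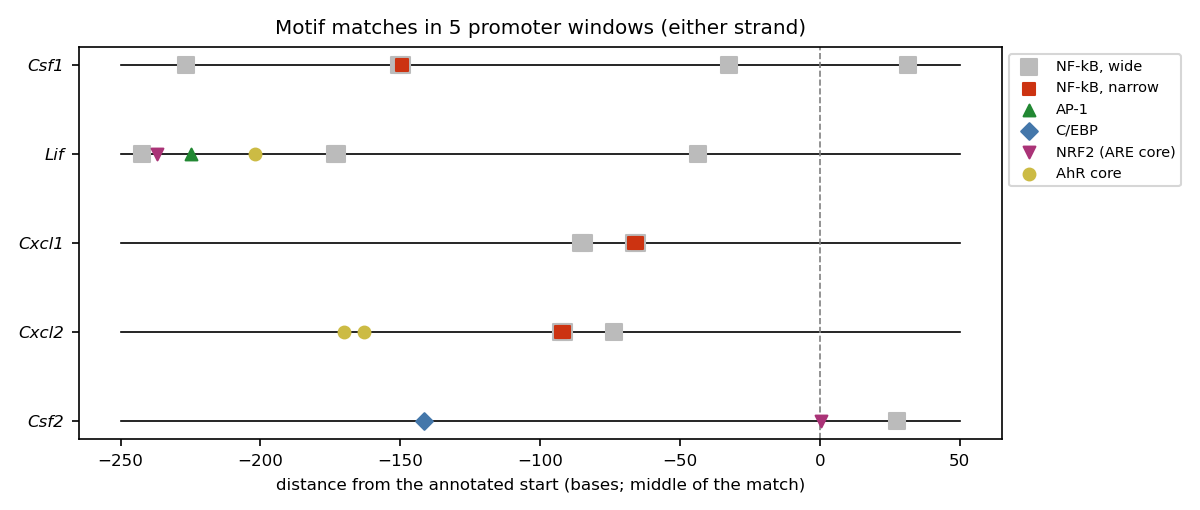
Position of pattern matches in the promoter windows of 5 genes, as distance in bases from the annotated start, with one symbol for each pattern. The narrow NF-kB pattern (red) lies in the windows of Csf1, Cxcl1 and Cxcl2, and of the NF-kB patterns Lif and Csf2 hold only the wide one (grey).

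The neutrophil chemokine Cxcl5 showed the largest change among the 7 tested genes. It had 5.22, 4.67 and 4.69 FPKM with control CM and 6.62, 8.13 and 7.68 FPKM with Tdo2high MFs CM. Every library with Tdo2high MFs CM was above every control library. The mean went from 4.86 ± 0.312 to 7.48 ± 0.775 FPKM (SD, n = 3 per group), a ratio of 1.54. The difference on the log2(FPKM + 1) scale was 0.53 ± 0.07 (SE), with adjusted p = 0.00236 by limma.

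Cxcl1, which acts on the same receptor as Cxcl5, had 7.52, 7.96 and 7.64 FPKM with control CM and 8.53, 8.04 and 8.73 with Tdo2high MFs CM. The groups did not overlap, as for 29.2% of all tested genes, but the gap between the highest control and the lowest treated library was small. The difference of 0.12 (95% interval 0.01 to 0.22) did not pass the test, at adjusted p = 0.182 by limma. Within a library, Cxcl5 stood at 0.587 to 0.694 of the level of Cxcl1 with control CM and at 0.776 to 1.01 with Tdo2high MFs CM.

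Cxcl2, the third ELR chemokine of the set, was listed at 0, 0 and 0.05 FPKM with control CM and at 0.05, 0.10 and 0 with Tdo2high MFs CM. Summed over Cxcl1, Cxcl2 and Cxcl5, the level was 12.4 to 12.7 FPKM with control CM and 15.2 to 16.4 with Tdo2high MFs CM, most of the gap coming from Cxcl5. These 3 genes have related sequences, and how shared reads were assigned is not given in the sources used here.

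Csf3, the growth factor of the neutrophil lineage, had 24.34, 21.73 and 22.10 FPKM with control CM and 28.25, 28.05 and 29.57 FPKM with Tdo2high MFs CM. All 3 treated libraries were above all 3 controls. The mean rose from 22.7 ± 1.41 to 28.6 ± 0.826 FPKM (SD, n = 3 per group), a ratio of 1.26. The difference was 0.32 ± 0.05 (SE), with adjusted p = 0.00274 by limma. Csf3 was thus both the third most abundant of the 10 genes and 1 of the 2 that rose.

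Neutrophil markers were checked beside these rises, since neutrophils would bring mRNA of their own. Of 10 markers 6 were in the table, and their summed level was 2.09 to 3.09 FPKM with control CM and 5.57 to 6.19 with Tdo2high MFs CM. S100a8, a calcium-binding protein gene, made up most of that sum and rose from 2.17 ± 0.420 to 5.41 ± 0.291 FPKM (SD, n = 3 per group; adjusted p = 0.000192 by limma). Ly6g did not exceed 0.07 FPKM, Elane 0.06 and Camp 0.10, and each of the 3 was listed at 0 in at least 1 library of either group. Ltf, which encodes lactoferrin, a protein of neutrophil granules, had 0.08, 0.08 and 0.02 FPKM with control CM and 0.18, 0.16 and 0.12 with Tdo2high MFs CM, higher in all 3 treated libraries but below the filter. Csf3r, the receptor for Csf3, had 0.21 to 0.37 FPKM over all libraries. The part of other cells in the rises was otherwise not tested. In bulk RNA more cells of a type and more RNA per cell cannot be told apart.

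Ccl5, which draws T cells, was the member that fell. It had 47.41, 44.15 and 42.54 FPKM with control CM and 34.90, 35.67 and 33.75 with Tdo2high MFs CM. The lowest control library lay well above the highest treated one. The mean fell from 44.7 ± 2.48 to 34.8 ± 0.966 FPKM (SD, n = 3 per group), to 0.778 of the control level. The difference was -0.35 ± 0.04 (SE), with adjusted p = 0.00113 by limma.

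T cells themselves express Ccl5, so their markers were set beside it. Of 8 T cell markers 5 were in the table, and none passed the filter. Their summed level was 1.11 to 1.21 FPKM with control CM and 0.71 to 0.85 with Tdo2high MFs CM. Lck, a kinase of T cell receptor signalling, made up 0.70 to 0.81 FPKM of it with control CM and 0.26 to 0.48 with Tdo2high MFs CM. Cd3e, a chain of the receptor complex that defines these cells, did not exceed 0.04 FPKM, Cd3d 0.17 and Cd4 0.02. Cd8a, a co-receptor of cytotoxic T cells, had 0.24 to 0.34 FPKM with control CM and 0.19 to 0.38 with Tdo2high MFs CM, and its groups overlapped. On the TPM scale, where more genes pass the filter, Lck alone of these markers was tested, and limma called it lower. It passed the filter through the control libraries, the group where it was higher. On that scale 496 of the 11448 genes tested were called lower. The part of T cells in the fall of Ccl5 was not tested.

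Ccl2, the main monocyte attractant of the set, had 7.95, 6.54 and 7.10 FPKM with control CM and 6.10, 6.53 and 7.03 with Tdo2high MFs CM. The groups overlapped. The difference of -0.12 (95% interval -0.27 to 0.04) did not pass the test, at adjusted p = 0.359 by limma. Ccl7, which shares the receptor CCR2 and lies 8259 bases from Ccl2 on chromosome 11, had 1.06, 0.84 and 0.99 FPKM with control CM and 0.79, 0.99 and 0.64 with Tdo2high MFs CM. It reached 1 FPKM in a single library and was left out by the filter. Fitted with no filter, its difference was -0.12 ± 0.08 (SE; adjusted p = 0.515 by limma).

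Csf1, the macrophage growth factor, was the most abundant of the set, above 93.9% of tested genes by its mean with control CM. It had 102.89, 100.46 and 99.51 FPKM with control CM and 101.68, 100.48 and 101.32 with Tdo2high MFs CM. The groups overlapped fully, and the difference was 0.003 with a 95% interval of -0.06 to 0.06 (adjusted p = 0.958 by limma). The sign of this difference is not fixed: it was -0.02 under quantile normalization. Csf1r, its receptor and a marker of macrophages, did not exceed 0.03 FPKM.

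Csf2 was listed at 0.12, 0 and 0.12 FPKM with control CM and at 0 in all 3 libraries with Tdo2high MFs CM, too low for a comparison. Lif, which acts on cells through LIFR and gp130, had 5.73, 5.35 and 5.20 FPKM with control CM and 5.62, 5.41 and 5.95 with Tdo2high MFs CM. Its groups overlapped, and the difference of 0.05 (95% interval -0.07 to 0.18) did not pass the test, at adjusted p = 0.623 by limma.

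The order of levels changed in the middle of the set. With control CM it ran from Csf1 through Ccl5, Csf3, Cxcl1, Ccl2, Lif, Cxcl5 and Ccl7 to Csf2 and Cxcl2. With Tdo2high MFs CM, Cxcl5 stood between Cxcl1 and Ccl2, and Cxcl2 before Csf2. Neighbours whose libraries overlapped were Cxcl1 and Ccl2, Lif and Cxcl5, and Csf2 and Cxcl2 with control CM. With Tdo2high MFs CM they were Cxcl1 and Cxcl5, Cxcl5 and Ccl2, and Cxcl2 and Csf2. Lif and Cxcl5, which overlapped with control CM, stood apart with Tdo2high MFs CM.

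Ratios within a library show the opposite moves of Ccl5 and Csf3, and were formed after the values had been seen. Ccl5 was 1.95, 2.03 and 1.93 times the level of Csf3 with control CM, and 1.24, 1.27 and 1.14 times with Tdo2high MFs CM. Cxcl5 was 0.657 to 0.714 of the level of Ccl2 with control CM and 1.09 to 1.25 times it with Tdo2high MFs CM. Csf1 made up 51.9% of the summed FPKM of the 10 genes with control CM and 52.3% with Tdo2high MFs CM. The share of the CC chemokines Ccl2, Ccl5 and Ccl7 was 27.1% and 21.8%, and that of Cxcl1, Cxcl2 and Cxcl5 was 6.47% and 8.25%.

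The genes whose pattern was nearest to that of Cxcl5 were Calr3, Mmp3 and Cd38. Nearness was the root mean square distance of log2(FPKM + 1) values, each gene centred on its mean over the 6 libraries, and came to 0.04, 0.06 and 0.06. The own spread of Cxcl5 on that scale was 0.28. Mmp3, a secreted protease that cuts matrix proteins, had 35.45 to 37.57 FPKM with control CM and 48.35 to 52.93 with Tdo2high MFs CM. Cd38, an enzyme that consumes NAD, had 18.05 to 19.60 and 26.03 to 27.60 FPKM. Calr3, a relative of calreticulin, had 4.48 ± 0.368 and 6.76 ± 0.669 FPKM (SD, n = 3 per group).

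Nearest to Ccl5 were 9530077C05Rik, Pdgfc and Ogn, at distances of 0.03, 0.04 and 0.04, against an own spread of 0.18. Pdgfc, a platelet-derived growth factor, had 9.90 to 10.83 FPKM with control CM and 7.64 to 8.46 with Tdo2high MFs CM. Ogn, a small matrix proteoglycan, had 7.31 to 8.26 and 5.95 to 6.34 FPKM, and 9530077C05Rik had 3.42 to 3.84 and 2.46 to 2.77 FPKM. These genes were picked for likeness over the same 6 libraries, so their differences between the groups are no separate evidence.

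**Figure D3:**
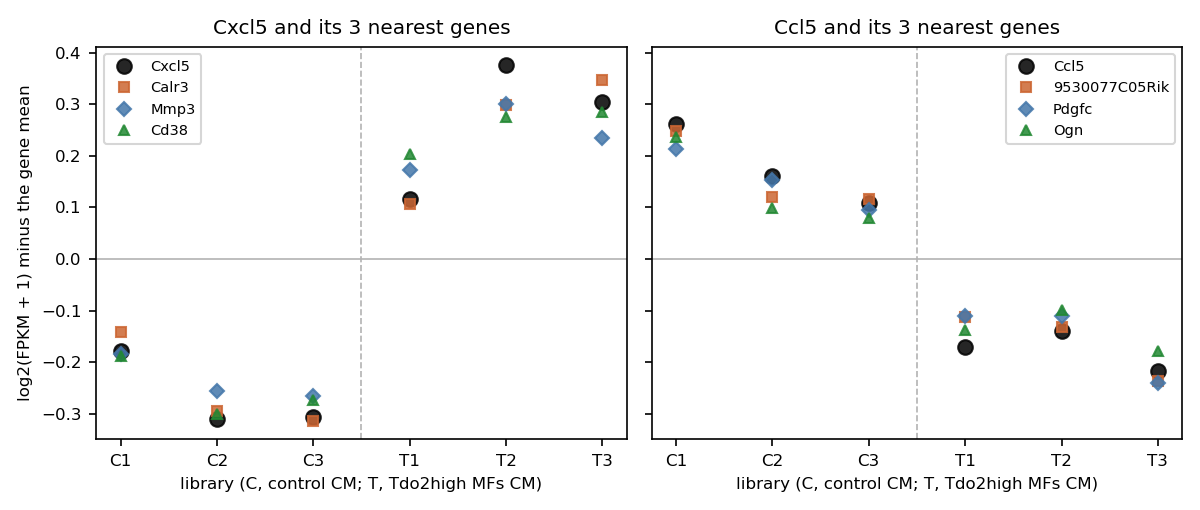
Log2(FPKM + 1) minus each gene's mean, by library (C1 to C3, control CM; T1 to T3, Tdo2high MFs CM), for Cxcl5 (left) and Ccl5 (right) with the 3 genes nearest in pattern. Black circles are the chemokine. Its neighbours share its shift between the groups, at distances of 0.03 to 0.06, but not always its order of libraries within a group.

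The 3 ELR chemokine genes of the set lie in 1 cluster on chromosome 5 of GRCm38. Cxcl5 spans 90759298 to 90761625, Cxcl1 90891245 to 90893121 and Cxcl2 90903899 to 90905938. Between Cxcl5 and Cxcl1 lie Ppbp, Pf4 and Cxcl15, further CXC chemokine genes. Pf4, platelet factor 4, had 0.99, 1.27 and 0.79 FPKM with control CM and 1.69, 1.68 and 1.70 with Tdo2high MFs CM, and was called higher (0.42 ± 0.09 SE; adjusted p = 0.0255 by limma). Of its control libraries only replicate 2 reached 1 FPKM, so Pf4 passed the filter through the group where it was higher. With 1 FPKM required in all 6 libraries it was not tested. Pf4 was no longer called when every gene in the table was tested (adjusted p = 0.0725), nor without any 1 library other than control CM replicate 2 (0.0685 to 0.0769). Ppbp, 6892 bases from Cxcl5, had 0.15 to 0.31 FPKM with control CM and 0.31 to 0.62 with Tdo2high MFs CM, and Cxcl15 had 0.14 to 0.35 FPKM over all libraries.

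The remaining genes lie on chromosomes 3 and 11. Csf1 is on chromosome 3 from 107741048 to 107760469. On chromosome 11, Ccl2 spans 82035577 to 82037452, Ccl7 82045712 to 82047525, Ccl5 83525778 to 83530518 and Csf3 98700183 to 98703631. Csf2 lies there from 54247270 to 54249899, 15185 bases from Il3, which did not exceed 0.07 FPKM. Lif lies from 4257568 to 4272514, 16541 bases from Osm, a cytokine of the same family that did not exceed 0.03 FPKM.

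Of 32 other chemokine genes listed, 17 were in the table and 5 passed the filter, and of the 5 tested 3 were called higher and none lower. The shares called over all tested genes were 3.35% higher and 4.06% lower. Of the 3, Pf4 passed the filter through the group where it was higher. The median difference of the 5 was 0.18. Cxcl10, an interferon-induced attractant of T cells, had 5.32, 4.95 and 4.50 FPKM with control CM and 5.92, 6.32 and 7.36 with Tdo2high MFs CM (0.34 ± 0.08 SE; adjusted p = 0.0277 by limma). Cx3cl1, a membrane-bound chemokine of monocytes and T cells, had 13.59 to 14.65 and 15.94 to 16.67 FPKM (0.18 ± 0.04 SE; adjusted p = 0.0273). Cxcl16 (-0.07) and Ccl25 (-0.16) were not called. Cxcl10 lost its call in 7 of 15 alternatives, with no filter for example (adjusted p = 0.113). It was also lost without control CM replicate 2 or 3 or Tdo2high MFs CM replicate 2 or 3, at adjusted p = 0.0651 to 0.0869. Cx3cl1 lost its call in 6 of 15, without any 1 library other than control CM replicate 2, at adjusted p = 0.0595 to 0.0968, and with no filter (0.069).

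Among 15 other growth factors of blood cells and gp130 cytokines, 14 were in the table and 7 were tested, and limma called 0 of them in either direction (1 at an unadjusted p under 0.05, Il34). Their median difference was -0.05, and the share called over all tested genes was 7.41% in either direction. Kitl, the ligand of the receptor KIT, was the most abundant, with means of 31.0 ± 1.26 and 31.8 ± 1.06 FPKM (SD, n = 3 per group). Il34, the other ligand of the Csf1 receptor, had 17.37, 17.81 and 16.14 FPKM with control CM and 15.29, 13.85 and 15.66 with Tdo2high MFs CM (-0.19, adjusted p = 0.0645 by limma). Il6, a main partner of these signals in inflammation, did not exceed 0.05 FPKM.

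**Figure D4:**
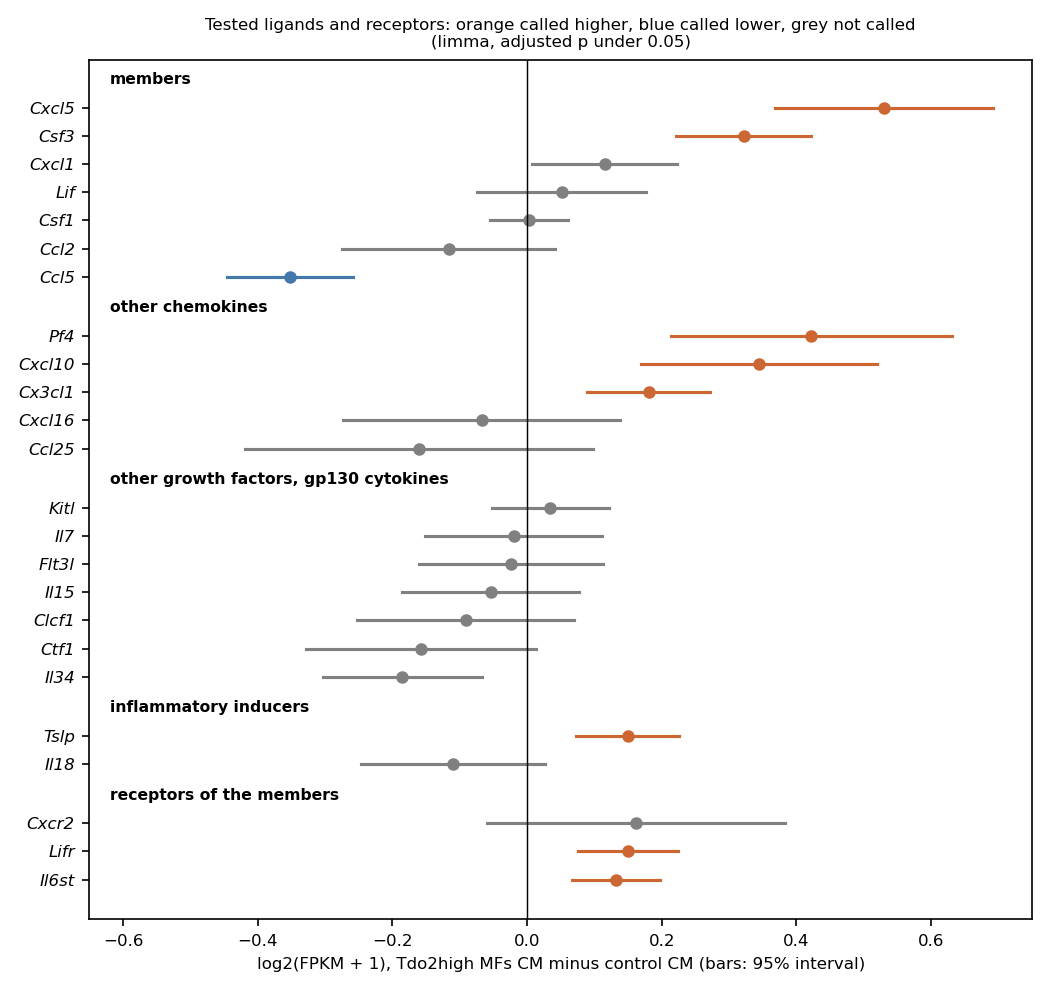
Difference of log2(FPKM + 1), Tdo2high MFs CM minus control CM, with 95% intervals, for the tested genes of 5 lists. Orange genes were called higher, blue lower and grey not called. Of the 10 genes described here the 7 tested are drawn: Cxcl5 (0.53) and Ccl5 (-0.35) lie at either end of them, and Csf1 lies at 0.003.

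Of 12 inflammatory inducers listed 10 were in the table, and 2 of them, Tslp and Il18, were tested. The other 8 stayed below 1 FPKM in every library: Tnf did not exceed 0.07 FPKM, Il1b 0.16 and Il1a 0.33. Tslp, an epithelial cytokine that acts on dendritic cells, was above Csf1 in every library. It had 166.89, 163.40 and 153.40 FPKM with control CM and 179.36, 175.99 and 181.17 with Tdo2high MFs CM (0.15 ± 0.03 SE; adjusted p = 0.0281 by limma). The call was lost in 8 of 15 alternatives, with no filter for example (adjusted p = 0.0902), and in fits without control CM replicate 3 or any 1 of the Tdo2high MFs CM replicates, at adjusted p = 0.0630 to 0.0973. Il18, a cytokine of the interleukin 1 family, had 13.13, 12.81 and 14.63 FPKM with control CM and 11.69, 12.22 and 13.48 with Tdo2high MFs CM, and its overlapping groups were not called different (-0.11, adjusted p = 0.317).

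The receptors of these signals were listed too. Of 15 receptor genes listed, 10 were in the table and 3 were tested, of which 2 were called higher and none lower. Over all tested genes 3.35% were called higher and 4.06% lower. Lifr, the receptor chain specific for Lif, had 28.34, 28.18 and 29.29 FPKM with control CM and 32.52, 30.89 and 32.10 with Tdo2high MFs CM (0.15 ± 0.03 SE; adjusted p = 0.0256 by limma). Il6st, which encodes gp130, went from 79.9 ± 2.29 to 87.6 ± 0.967 FPKM (SD, n = 3 per group; adjusted p = 0.0256). Lifr lost its call in 6 of 15 alternatives, with no filter for example (adjusted p = 0.0576), and in fits without replicate 1 or 2 of control CM or replicate 1 or 3 of Tdo2high MFs CM (0.0674 to 0.0869). Il6st lost it in 8 of 15, with no filter for example (0.0598), and in fits without any 1 library other than control CM replicate 3 (0.0558 to 0.0939). Cxcr2, the receptor of Cxcl1 and Cxcl5, had 1.18 to 1.39 and 1.26 to 1.90 FPKM (0.16, adjusted p = 0.361). The other 7 in the table, among them Csf1r, Csf3r and Ccr2, stayed below 1 FPKM in every library.

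NF-kB and C/EBP proteins are the usual activators of these promoters. All 17 listed regulators were tested, and 1 was called lower and none higher, with a median difference of -0.01. In either direction 7.41% of all tested genes were called. The called gene was Tnfaip3, an enzyme that shuts NF-kB signalling off, with 6.27, 6.01 and 5.75 FPKM with control CM and 4.19, 4.56 and 4.60 with Tdo2high MFs CM (-0.36 ± 0.06 SE; adjusted p = 0.00501 by limma). The groups did not overlap for 7 of the 17, against 29.2% of all tested genes. Tnfaip3, Rela, Relb, Nfkb1 and Nfkb2 were lower in every treated library, and Nfkbiz and Ikbkg higher. Cebpb, the most abundant of the list, had 83.4 ± 8.26 and 83.9 ± 4.61 FPKM (SD, n = 3 per group; adjusted p = 0.935). Nfkbiz, a nuclear cofactor of NF-kB, had a mean of 7.91 FPKM with control CM and 9.71 with Tdo2high MFs CM (0.26, adjusted p = 0.0731). Rela, the main activating subunit, had 34.8 ± 0.402 and 33.3 ± 0.660 FPKM (adjusted p = 0.247).

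Chemokine and CSF mRNAs are also held down by decay through AU-rich stretches of the 3′ UTR, which proteins such as Zfp36 (tristetraprolin) bind. In GENCODE M21 transcripts the pentamer ATTTA stood 9 times in the 3′ UTR of Csf2, 11 times in Cxcl2, 7 in Cxcl1 and Lif, 6 in Csf3, 5 in Cxcl5, 4 in Csf1, 2 in Ccl7, 1 in Ccl2 and 0 in Ccl5. Of the 10 genes 7 held at least 3, against 34.9% of 15173 genes of the table, with no allowance for the length of the 3′ UTR. The nonamer TTATTTATT, which contains the pentamer, stood in 4 of the 10 (Csf2, Cxcl1, Cxcl2 and Lif), against 7.42%. The densest 24 bases of the growth factor that rose, the least abundant growth factor and the steadier ELR chemokine are shown with the pentamers in capitals.
Csf3: ttATTTAtctctATTTAatATTTA
Csf2: aatATTTATTTATTTATTTATTTA
Cxcl1: cctATTTATTTAtgtATTTATTTA

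Of the 3 called genes, Cxcl5 and Csf3, which rose, held 5 and 6 pentamers, and Ccl5, which fell, held 0. Of the 4 tested genes that were not called, Cxcl1 and Lif held 7, Csf1 4 and Ccl2 1. The 3′ UTRs differ in length, from 199 bases in Ccl5 to 3180 in Lif, and a short one has less room for pentamers. Per kb of 3′ UTR, Cxcl5 held 4.5 pentamers and Csf3 8.97. Among the genes not called the figures were 11.8 for Cxcl1, 3.64 for Ccl2, 2.20 for Lif and 1.90 for Csf1. Whether decay had a part in the differences was not tested. Over all tested genes 7.41% were called in either direction. Of 12 listed genes of this decay pathway, all tested, 1 was called lower and none higher, with a median difference of -0.03. It was Zfp36, with 9.53, 12.30 and 10.76 FPKM with control CM and 6.19, 6.54 and 9.44 with Tdo2high MFs CM (-0.51 ± 0.13 SE; adjusted p = 0.0413 by limma). The highest treated library lay just under the lowest control. Zfp36 lost its call in 9 of 15 alternatives, with no filter for example (adjusted p = 0.167), and in fits without any 1 library other than Tdo2high MFs CM replicate 3 (0.0505 to 0.134). Zfp36l2, a relative of Zfp36 and the most abundant of the list, had 92.3 ± 2.76 and 91.8 ± 2.14 FPKM (SD, n = 3 per group; adjusted p = 0.910).

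Markers of other cell types that could add these signals were mixed: some were near 0, and others, fibroblast markers among them, were well above it. Of 10 monocyte and macrophage markers 8 were in the table, summing to 8.16 to 10.42 FPKM with control CM and 10.05 to 11.67 with Tdo2high MFs CM. Cd14 and Cd68 made up nearly all of it, neither was called, and Lyz2 did not exceed 0.10 FPKM. Of 11 fibroblast markers 8 were in the table, summing to 110.7 to 114.4 and 122.2 to 126.3 FPKM. Col1a1, the defining collagen, did not exceed 0.12 FPKM, Col1a2 0.01, Lum 0.03 and Tdo2 0.20. The others were well expressed over the 6 libraries: Pdgfra at 41.71 to 47.55 FPKM, Npnt at 29.99 to 44.60, Pdgfrb at 22.68 to 24.18 and Dcn at 9.99 to 16.06. Npnt (0.46) and Pdgfra (0.17) were called higher and Dcn (-0.48) lower, at adjusted p = 9.97e-05, 0.00518 and 0.00114 by limma. Fibroblasts are a source of Ccl2, Cxcl1 and Cxcl5, and their part in the values here was not tested beyond these markers. Of 8 epithelial carcinoma markers 7 were found, and Krt18 and Krt8 had at least 263.92 FPKM in every library. The other 5 stayed below 1 FPKM throughout: Krt7 did not exceed 0.59 FPKM, Epcam 0.11, Krt5 0.07, Krt14 0.06 and Cdh1 0.02.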

How the data were processed

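Polyadenylated RNA of 4T1-LM3 cells was sequenced in 6 libraries made from random-primed cDNA, per the labels' protocols. The authors deposited FPKM rounded to 2 decimals, per the file headers, on build GRCm38 per the submitters' processing notes. What aligner, quantifier and gene models were used was not given in the sources used here. Samples were grouped by titles that match the column names. Among 761 low genes, 19.2% of 2878 values were whole multiples of the gene's smallest value within rounding, so reads were not recovered and depth is unknown.

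Genes with 1 FPKM or more in at least 3 libraries (10804 of 16426) were tested as log2(FPKM + 1) by limma 3.58.1 in R 4.3.3 (intensity trend, two-sided, Benjamini-Hochberg, no replicate block). With 3 against 3 an exact permutation test cannot go below 0.1. The code was tested on simulated data. The 15 alternatives changed the offset, filter, scaling, variance model and block, or left out 1 library.

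Members and lists were chosen with earlier results of these data known. Named were all members, up to 4 called genes and the most abundant tested gene of each other list, genes nearest in pattern, and chromosomal neighbours. Others, among them Il34, Nfkbiz, Rela, Cxcr2, Lck, Il18 and genes near 0, were named after their values were seen. Figures used matplotlib 3.10.9.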

Additional observations from a re-analysis of the deposited data

How the results depend on the processing

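Cxcl5, Csf3 and Ccl5 kept their direction and their call in all 15 alternatives, and Cxcl1, Ccl2 and Lif kept their sign and stayed uncalled. The log2 difference ran from 0.47 to 0.61 for Cxcl5, from 0.29 to 0.37 for Csf3 and from -0.39 to -0.31 for Ccl5, with adjusted p of at most 0.0324, 0.0272 and 0.018 by limma. That of Csf1 changed sign under quantile normalization (-0.018) and on the TPM scale (-0.00729), and ran from -0.00717 to 0.0167 without 1 library. With no filter on low values 193 genes were called higher and 182 lower, over 16426 genes tested. With no intensity trend 277 genes were called lower. Leaving out 1 library gave 209 to 293 genes higher and 186 to 266 lower. More genes were tested with no filter, and fits without 1 library had fewer libraries, but the cause of these changes was not tested.

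Libraries share a number in their titles. The correlation of deviations from the group means was -0.023, -0.0305 and 0.018 for the same-numbered pairs, so the numbers were not taken to pair the samples. With the number as a replicate block, 296 genes were called higher and 326 lower, 2 members higher and 1 lower, and the calls of Cxcl10 (adjusted p = 0.064) and Tslp (0.0521) ended. No count of reads was at hand, so depth sets no stated limit for Cxcl2, Csf2 and Ccl7. Counts of the 12 other lists kept within 1.5 times their value in 322 cases, were smaller in 31 and larger in 7. Most of these counts were 0 in the main fit, and a 0 that stayed 0 was taken as kept. The 322 cases therefore overstate how steady the lists with called genes were, and all 31 smaller cases fell among those.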

Other observations

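The kinases and transcription factors below the Lif and CSF receptors were listed as well. All 12 were tested, and 1 was called higher and none lower by limma, with a median difference of 0.01 on the log2(FPKM + 1) scale. In either direction 7.41% of all tested genes were called. Stat3, the transcription factor that gp130 activates, had 51.47, 50.07 and 51.70 FPKM with control CM and 58.98, 59.84 and 58.96 with Tdo2high MFs CM. The groups stood clearly apart (0.21 ± 0.03 SE; adjusted p = 0.00181 by limma), and the call held in all 15 alternatives. Jak2, a kinase of these receptors and the most abundant of the list, had 105.8 ± 1.55 and 108.5 ± 1.04 FPKM (SD, n = 3 per group; adjusted p = 0.445). Socs3, a feedback inhibitor that STAT3 induces, had 41.01, 43.31 and 43.18 FPKM with control CM and 40.69, 41.11 and 50.12 with Tdo2high MFs CM. Its groups overlapped, with 1 treated library above the rest (adjusted p = 0.756 by limma).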
